A study of Mus musculus with 20 samples.

Results

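The 10 genes *Adipoq*, *Lep*, *Retn*, *Cfd*, *Plin1*, *Fabp4*, *Pnpla2*, *Lipe*, *Pparg* and *Cebpa*, which mark the white adipocyte, were followed through the mammary tumors and cultured tumor cells of the study. They are 10 of the 45706 gene identifiers in the count files. They were chosen by name, with the difference between tumor genotypes already known, so the tumor values below describe that difference and are not a test of it. In the tumors all 10 had a higher mean in the Ctsd-KO group than in the control group. In the cultured tumor cells, *Plin1* and *Cfd* had no read in any of the 12 samples and *Adipoq*, *Lep* and *Retn* had at most 2 reads in a sample.

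RNA was sequenced from 8 tumors of 18-week-old PyMT mice and from 12 samples of cultured PyMT tumor cells. PyMT mice carry the polyoma middle T oncogene under the MMTV promoter, here on a C57BL/6N background, and form mammary carcinomas. The 4 Ctsd-KO tumors came from MMTV-cre;*Ctsd*-/- mice, in which Cre deletes floxed *Ctsd* (cathepsin D, a lysosomal protease) in the mammary epithelium, while other cells of the tumor keep the gene. The 4 control tumors, labelled WT, came from cathepsin D-competent PyMT mice, whose *Ctsd* alleles could be wild type or floxed. The paper reports that, by ultrasound at this age, tumors of MMTV-cre;*Ctsd*-/- mice were smaller than those of controls. Tumor size and genotype therefore cannot be told apart here, and the part of size in the values was not tested. The cells were spontaneously immortalized tumor cells from a *Ctsd*+/+ mouse (WT) and an MMTV-cre;*Ctsd*-/- mouse (Ctsd-KO), with a single line per genotype. They grew in medium with 1% FCS (fetal calf serum) for 10 days (1% FCS) or for 12 weeks (1% FCS LT), with 3 replicates in each of 4 groups. In cells, line and genotype therefore cannot be told apart, and p-values measure only the spread between the samples.

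White adipocytes store triglyceride in a single large lipid droplet and release it as fatty acids by lipolysis. They also secrete hormones, the adipokines, which act on appetite, on insulin sensitivity and on immunity. Their identity rests on the transcription factors PPARγ and C/EBPα, which maintain each other and switch on most genes of the mature fat cell. The mammary gland lies within a pad of white fat, and adipocytes border and enter growing mammary tumors.

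Promoter sequence of RefSeq (GRCm38.p6) was found for 9 of the 10 genes, with 12 start sites between them, and not for *Fabp4*. Each window holds the 250 bases before a start site. Because PPARγ and C/EBPα are the regulators most closely tied to these genes, the windows of 4 members are shown, those of an adipokine pair, of a lipase and of a regulator, with the letters of 7 searched motifs in capitals. The windows are *Lep* at chr6:29059971-29060220, *Adipoq* at chr16:23146286-23146535, *Pnpla2* at chr7:141454938-141455187 and the most downstream of 3 *Pparg* start sites at chr6:115421816-115422065. All 4 lie on the + strand and are written 5′ to 3′.
Lep: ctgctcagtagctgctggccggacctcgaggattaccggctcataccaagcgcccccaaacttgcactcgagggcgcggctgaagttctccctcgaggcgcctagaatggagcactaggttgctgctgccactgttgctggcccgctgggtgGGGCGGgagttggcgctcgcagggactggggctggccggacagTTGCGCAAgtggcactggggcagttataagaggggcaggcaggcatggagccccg
Adipoq: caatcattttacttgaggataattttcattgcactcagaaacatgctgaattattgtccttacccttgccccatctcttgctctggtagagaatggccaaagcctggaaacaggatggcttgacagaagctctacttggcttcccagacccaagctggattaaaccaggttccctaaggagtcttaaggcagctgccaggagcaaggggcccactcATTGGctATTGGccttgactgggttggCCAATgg
Pnpla2: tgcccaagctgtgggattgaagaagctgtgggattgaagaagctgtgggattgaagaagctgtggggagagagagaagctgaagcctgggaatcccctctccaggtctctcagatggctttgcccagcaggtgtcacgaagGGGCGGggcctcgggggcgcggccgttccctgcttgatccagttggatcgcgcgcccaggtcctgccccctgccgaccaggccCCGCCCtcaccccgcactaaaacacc
Pparg: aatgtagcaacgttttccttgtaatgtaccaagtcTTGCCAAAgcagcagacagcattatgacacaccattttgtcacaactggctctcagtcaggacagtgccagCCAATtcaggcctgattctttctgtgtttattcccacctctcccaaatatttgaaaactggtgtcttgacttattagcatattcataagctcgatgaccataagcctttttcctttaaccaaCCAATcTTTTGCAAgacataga

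The motifs were searched on both strands in all 32851 promoter windows of this length. The C/EBP letters TTGCNNAA were in the windows of *Lep*, *Plin1* and *Pparg*, and in 9.56% of all windows. In *Lep* they lay between 55 and 48 bases before the start. The CCAAT box letters CCAAT were found in *Adipoq* and *Pparg* and in 33.8% of all windows. The GC box letters GGGCGG were found in *Lep*, *Pparg*, *Lipe* and *Pnpla2* and in 32.7%, the E-box letters CACGTG in *Lipe* alone of the members and in 6.02%, and the TATA box letters TATAAA in *Pparg* and *Cebpa* and in 12.4%. The PPAR letters AGGTCA were found in *Pparg* and in 14% of all windows. The direct repeat of these letters with a single base between them was found in no member and in 0.0335% of all windows. A match describes these letters and does not show that a factor binds there.

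*Ctsd* itself was read first as a check of the labels. It had between 1781 and 2617 CPM (reads per 1e6 reads on genes, scaled with TMM) in control tumors. In Ctsd-KO tumors 1 to 4 it had 797, 360.2, 1295 and 1233 CPM, without overlap with the control tumors. In cells it had 1267 to 4199 CPM in WT and 114 to 192 CPM in Ctsd-KO samples. Totals on genes were 49725437 to 64291587 per tumor and 33622831 to 40239762 per cell sample. The library code in the labels is the same within a genotype and differs between the genotypes, so that code and genotype cannot be told apart in tumors. A pair of tumors stood apart by skeletal muscle transcripts. The summed level of 6 muscle markers was 967.5 CPM in control tumor 4 and 238 CPM in Ctsd-KO tumor 1, and 3.60 to 63.7 CPM in the others. Control tumor 4 also had more reads on short genes. The median difference in log2 CPM between the shortest and the longest 25% of genes, centred per gene over the tumors, was 0.91 there and −0.28 to 0.18 in the others. Its share of reads on ribosomal protein genes was 14.2%, against 10.1% in control tumor 3 and 4.58% to 6.18% in the others. The median log2 fold change of the members and their overlap are therefore also given without control tumor 4 and Ctsd-KO tumor 1.

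Adipokines had a higher mean in Ctsd-KO tumors. *Adipoq* (chr16:23146536-23158028) encodes adiponectin, the insulin-sensitizing hormone made almost only by adipocytes. It had 42.8, 136, 24.0 and 231 CPM in control tumors 1 to 4 and 398, 158, 732 and 1080.2 CPM in Ctsd-KO tumors 1 to 4. Ctsd-KO tumors 1, 3 and 4 lay above every control tumor and Ctsd-KO tumor 2 lay below control tumor 4, so the groups overlapped. The log2 fold change (FC) of Ctsd-KO over control was 2.45, with a standard error (SE) of 0.75. In these bulk tumors, more adipocytes and more RNA of a gene per adipocyte cannot be told apart. *Lep* (chr6:29060220-29073877) encodes leptin, the satiety hormone whose production rises with fat cell size. It had 4.00, 6.67, 3.18 and 5.02 CPM in control tumors and 6.47, 11.0, 70.8 and 171 CPM in Ctsd-KO tumors. Ctsd-KO tumors 3 and 4 were far above the rest, while Ctsd-KO tumor 1 lay within the control range. Its log2 FC was 3.78 (SE 0.91) by edgeR, above the 3.12 of *Plin1*, but 2.74 by limma-voom and 2.73 with a replicate block, below the 3.03 and 2.96 of *Plin1*. Without Ctsd-KO tumor 4 it was 2.64.

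*Retn* (chr8:3655770-3660110), the gene of resistin, had 34.2, 69.8, 13.6 and 129 CPM in control tumors and 216, 96.1, 457 and 848 CPM in Ctsd-KO tumors. The groups overlapped through control tumor 4 and Ctsd-KO tumor 2, and the log2 FC was 2.71 (SE 0.77). *Cfd* (chr10:79890853-79892655), the gene of adipsin or complement factor D, had 599, 2331, 310.0 and 3405 CPM in control tumors. In Ctsd-KO tumors it had 5179, 2255, 3851 and 11889 CPM. Ctsd-KO tumor 2 lay below 2 control tumors, and unlike the other members *Cfd* was higher in Ctsd-KO tumor 1 than in Ctsd-KO tumor 3. Its log2 FC was 1.80 (SE 0.75).

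Of the lipid droplet and fatty acid carrier genes, *Plin1* had a larger difference between the genotypes than *Fabp4*, by less than the SE of either. *Plin1* (chr7:79720218-79732903) encodes perilipin-1, which coats the droplet and restrains lipolysis until the cell is stimulated. It had 1.66, 5.20, 1.03 and 7.86 CPM in control tumors and 11.4, 7.07, 48.2 and 69.5 CPM in Ctsd-KO tumors, a log2 FC of 3.12 (SE 0.84). *Fabp4* (chr3:10204088-10208576) encodes the fatty acid-binding protein of adipocytes, and is also made by macrophages and capillary endothelium. It had 154, 525, 149 and 1616 CPM in control tumors and 1952, 623, 4459 and 7014 CPM in Ctsd-KO tumors, a log2 FC of 2.52 (SE 0.90). In both genes the order of the 8 tumors was that of *Adipoq*, with control tumor 4 between Ctsd-KO tumors 1 and 2. Without control tumor 4 the log2 FC of *Fabp4* was 3.67.

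The lipases were the only members without overlap between the genotypes. *Pnpla2* (chr7:141455198-141460743) encodes ATGL, which removes the first fatty acid from triglyceride and is active in many tissues besides fat. It had 349, 422, 337 and 259 CPM in control tumors and 491, 575, 1619 and 2515 CPM in Ctsd-KO tumors, a log2 FC of 1.93 (SE 0.50). Its control values spanned only 1.63-fold, the narrowest control range of the members. *Lipe* (chr7:25379527-25398710) encodes hormone-sensitive lipase, which takes the next fatty acid. It had 28.2, 69.8, 15.4 and 25.7 CPM in control tumors and 83.2, 78.5, 441 and 558 CPM in Ctsd-KO tumors, a log2 FC of 3.06 (SE 0.73). In *Lipe* the highest control and the lowest Ctsd-KO tumor lay close together. No overlap, with Ctsd-KO higher, was seen in 2 of 10 members and in 2.26% of the 18617 genes tested (1.89% had Ctsd-KO lower), and nothing is read from this because the members were chosen on this contrast. *Lipe* shares 918 bp, 15.6% of its exonic length, with *4732471J01Rik* on the other strand. Reads there are lost without strand, and with the counts of both strands summed the log2 FC was 3.09. *Pnpla2* lies 915 kb from *Ctsd*, on the same chromosome.

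Both regulators were also higher on average. *Pparg* (chr6:115360951-115490399), the gene of PPARγ, the receptor without which fat cells do not form, had 7.13, 14.0, 1.82 and 9.74 CPM in control tumors and 21.3, 13.4, 50.0 and 84.4 CPM in Ctsd-KO tumors. Control tumor 2 and Ctsd-KO tumor 2 were alike, and the log2 FC was 2.37 (SE 0.67). The count per gene does not separate its start sites. *Cebpa* (chr7:35119293-35121928), the gene of C/EBPα, which is also active in myeloid cells and liver, had 24.0, 45.4, 25.2 and 25.5 CPM in control tumors. In Ctsd-KO tumors it had 41.8, 44.9, 83.5 and 119 CPM. Control tumor 2 stood above Ctsd-KO tumors 1 and 2, and the log2 FC of 1.27 (SE 0.37) was the smallest of the members.

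**Figure D1:**
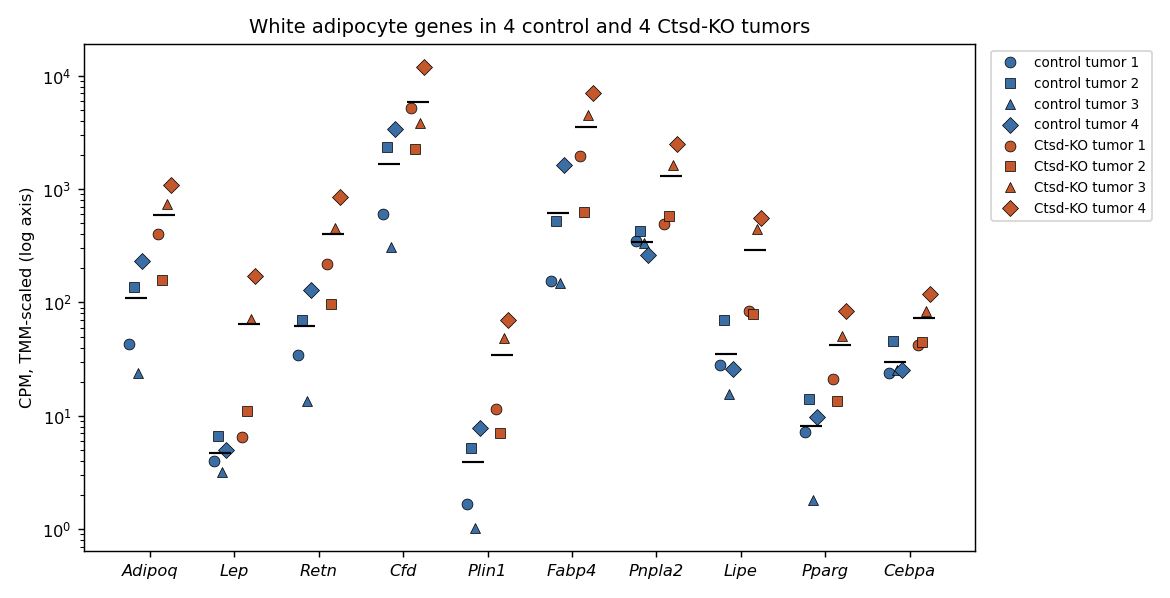
CPM (log axis) of the 10 white adipocyte genes in each control (blue) and Ctsd-KO (orange) tumor, with 1 symbol shape per tumor number and a black line at the group mean. Ctsd-KO tumor 4 is the highest of the 8 tumors for all 10 genes, and only *Lipe* and *Pnpla2* show no overlap between the groups.

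The same few tumors set the difference for nearly all members. Ctsd-KO tumor 4 was the highest of the 8 tumors for all 10 genes, by 2.63-fold (*Cebpa*) to 25.6-fold (*Lep*) over the highest control tumor. Ctsd-KO tumors 3 and 4 were the 2 highest for 9 genes, with *Cfd* the exception. Control tumor 3 was the lowest for 8 genes, *Cebpa* and *Pnpla2* being the exceptions. Ctsd-KO tumor 2 lay above control tumor 4 for only 5 of the 10. The median log2 FC of the members was 2.49, beside 0.00073 over all genes tested. It was 1.97 without Ctsd-KO tumor 4, 3.04 without control tumor 4, and 3.27 without the muscle-containing pair. Without that pair, 7 members had no overlap and *Cfd*, *Pparg* and *Cebpa* did. There 8.38% of all genes had Ctsd-KO tumors above all control tumors. Nothing is read from this either. The members were chosen on this contrast, and the pair was left out after the data were seen.

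Levels between genes were compared as mean CPM per kb of exon, counting every base that is exonic in any annotated transcript. For *Fabp4* this length was 4489 bp, the whole span of the gene including its introns. This lowers its value per kb, so its distance from *Cfd* and its place in the order depend on this length. *Cfd* was the highest in both groups, with 1802 ± 1590 CPM per kb (SD, n = 4) in control and 6283 ± 4594 CPM per kb (SD, n = 4) in Ctsd-KO tumors. *Fabp4*, *Pnpla2* and *Adipoq* followed with 136, 113 and 78.5 CPM per kb in control tumors and with 782, 430.5 and 429 CPM per kb in Ctsd-KO tumors. *Plin1* was the lowest in both groups, with 0.847 ± 0.688 CPM per kb (SD, n = 4) in control and 7.32 ± 6.45 CPM per kb (SD, n = 4) in Ctsd-KO tumors. Its place too depends on the exonic length used, here 4649 bp. In control tumors the ranges of all neighbours in this order overlapped. In Ctsd-KO tumors only *Cfd* and *Fabp4* did not, at the exon length used for *Fabp4*. *Lipe* and *Lep* stood 1 place higher there than in control tumors.

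Relative to *Adipoq*, the members fell into constant and variable ones. *Retn* was the most constant, with 51.3 to 79.8 reads per 100 *Adipoq* reads over the 8 tumors, a range of 1.55-fold. *Fabp4* ranged from 360 to 700 reads per 100 *Adipoq* reads. *Plin1* had 3.41 to 4.29 in control tumors and 2.86, 4.47, 6.59 and 6.43 in Ctsd-KO tumors 1 to 4. Its ratio thus lay above every control tumor in Ctsd-KO tumors 2, 3 and 4. These ratios ranged at most 2.30-fold, while *Adipoq* itself ranged over 5.49 on the log2 scale. *Cfd* had 1293 to 1714 reads per 100 *Adipoq* reads in control tumors, but 526 in Ctsd-KO tumor 3.

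*Lep* varied 9.72-fold against *Adipoq*. It had 9.32, 4.90, 13.3 and 2.18 reads per 100 *Adipoq* reads in control tumors and 1.63, 6.96, 9.67 and 15.8 in Ctsd-KO tumors, with control tumor 4 and Ctsd-KO tumor 1 lowest. The groups overlapped in this ratio, as they did in the CPM of *Lep* itself. *Lipe* had 65.8, 51.3, 64.4 and 11.1 reads per 100 *Adipoq* reads in control tumors and 20.9, 49.7, 60.2 and 51.7 in Ctsd-KO tumors, and the same pair was lowest. Outside that pair the *Lipe* ratio stayed between 49.7 and 65.8 in both genotypes.

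*Cebpa* and *Pnpla2*, which cells other than adipocytes also express, had their highest ratios where *Adipoq* was lowest. *Cebpa* reached 105 reads per 100 *Adipoq* reads in control tumor 3 and had 11.1 in Ctsd-KO tumor 4. *Pnpla2* had 1407 reads per 100 *Adipoq* reads in control tumor 3 and 112 in control tumor 4, a range of 12.5-fold. *Pparg* ranged from 4.22 to 16.6 reads per 100 *Adipoq* reads, with control tumor 1 highest. The ratios share *Adipoq* as their denominator and are a description.

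**Figure D2:**
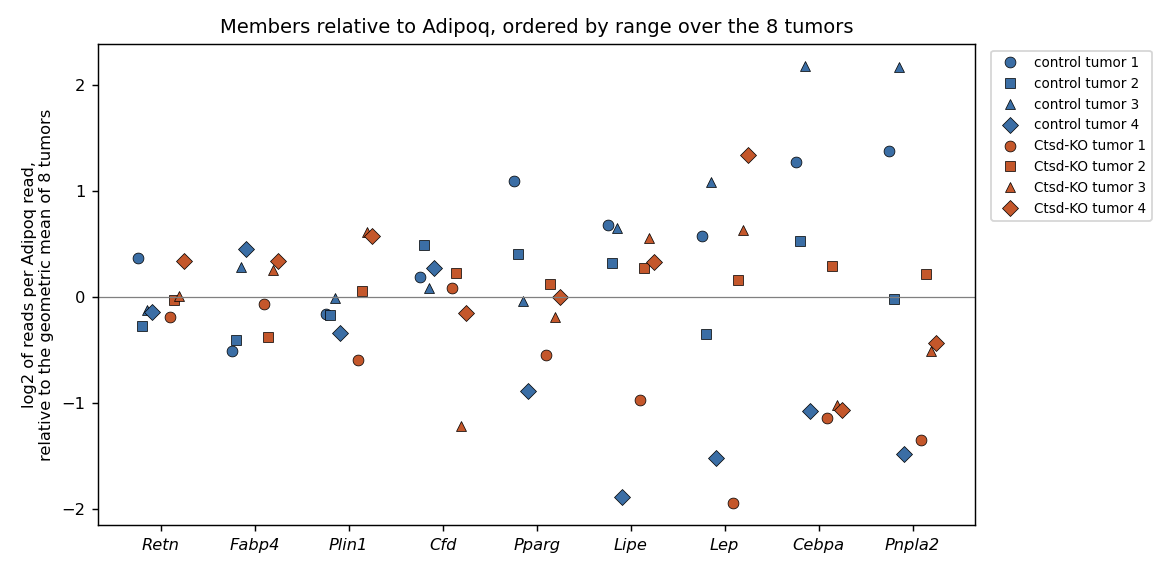
Reads of 9 members per *Adipoq* read (log2, relative to each gene's geometric mean over the 8 tumors) in control (blue) and Ctsd-KO (orange) tumors, ordered by range. *Retn*, *Fabp4* and *Plin1* stay within a narrow band, and control tumor 4 and Ctsd-KO tumor 1 are the lowest for *Lipe* and *Lep*.

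The members resembled each other in profile to different degrees. As the root mean square (RMS) difference of a gene's centred log2 CPM from the mean of the other members over the 8 tumors, *Pparg* was closest at 0.39 and *Cebpa* farthest at 0.96. Among 18607 other genes, with a median RMS difference of 1.62 from the members' mean profile, the 10 closest lay between 0.24 and 0.38. They included *Arxes2*, a gene named for its expression in adipocytes, *Dhdh*, *Fxyd1*, *Gsn* (gelsolin, an actin-severing protein), *Slc1a5* (a glutamine transporter), *Lpl*, *Trarg1* (a protein of GLUT4 vesicles), *Agpat2* and *Hoxc5*. *Arxes2* had 10.4, 14.5, 4.96 and 18.1 CPM in control tumors and 35.8, 18.4, 71.3 and 154 CPM in Ctsd-KO tumors, and is uncertain because it has a near-identical paralog. *Gsn*, the most abundant of them in reads, had 140 to 626 CPM in control tumors and 548 to 3910.0 CPM in Ctsd-KO tumors.

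Other white adipocyte genes, listed by role and not used to choose the members, rose in Ctsd-KO tumors or did not pass, and none fell. The lists are not restricted to adipocytes, since 57 of the genes had enough reads to be tested in the cultured tumor cells. The part of other cells in their tumor values was not tested. Of 79 listed genes 78 were tested (*Serpina12* was too low), 56 were higher at the threshold the study states for tumors, a p of 0.1 without correction, 0 were lower, and 22 did not pass. At that threshold 8.44% of all genes tested were higher and 8.27% were lower. By edgeR 50 of the 78 had an unadjusted p under 0.05, but 0 had an adjusted p under 0.05, and the lowest adjusted p was 0.292. Over all 18617 genes tested, 1 had an adjusted p under 0.05 by edgeR. DESeq2 gave 28 of the listed genes and limma-voom 0. The share of all genes called by DESeq2 is not given here, so nothing is read from the 28. The median log2 FC of the 78 genes was 1.45. These genes share the 8 tumors with the members and are no independent sample of the genotypes. The lists were also drawn up with earlier results of these data known, so the counts describe these tumors.

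All 13 genes of lipid uptake and triglyceride synthesis rose, with a median log2 FC of 2.47. *Dgat2*, the enzyme of the last step of triglyceride synthesis, had 7.24 to 26.9 CPM in control tumors and 57.2 to 430.1 CPM in Ctsd-KO tumors (log2 FC 3.44, SE 0.71; edgeR adjusted p = 0.292). *Pnpla3*, a paralog of *Pnpla2* regulated by feeding, had a log2 FC of 3.81 (SE 0.87). *Lpl*, the lipase that frees fatty acids from circulating lipoproteins, had 40.1 to 233 CPM in control tumors and 248 to 2273 CPM in Ctsd-KO tumors, a log2 FC of 3.01 (SE 0.78).

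All 8 genes of de novo lipogenesis rose as well, with a median log2 FC of 2.71. *Fasn*, the fatty acid synthase, had 140 to 264 CPM in control tumors and 578 to 4354 CPM in Ctsd-KO tumors (log2 FC 3.57, SE 0.69; edgeR adjusted p = 0.292). The acetyl-CoA carboxylase genes *Acaca* and *Acacb*, which supply its substrate malonyl-CoA, had log2 FCs of 3.01 (SE 0.65) and 3.05 (SE 0.65). Of the 8 genes, 5 had every Ctsd-KO tumor above every control tumor, beside 2.26% of all genes, and those named here were picked among them.

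Of the 17 genes of the lipid droplet and lipolysis, 12 rose. *Aqp7*, the channel that lets glycerol out of fat cells, had 1.46 to 4.00 CPM in control tumors and 7.03 to 76.4 CPM in Ctsd-KO tumors, a log2 FC of 3.72 (SE 0.74). *Adrb3*, the β3-adrenergic receptor that starts lipolysis, and *Hcar1*, the lactate receptor that restrains it, had log2 FCs of 2.67 (SE 0.79) and 2.95 (SE 1.11). *Abhd5* and *G0s2*, the activator and the inhibitor of the *Pnpla2* enzyme, did not pass, with log2 FCs of 0.18 (SE 0.39) and −0.05 (SE 0.49).

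Of 7 genes of insulin action and glucose uptake 6 rose, none without overlap between the groups, and *Slc2a4*, the insulin-regulated glucose transporter GLUT4, had a log2 FC of 2.68 (SE 0.67). Of 11 tested adipokines other than the members, 5 rose. *Rbp4*, the retinol-binding protein, had a log2 FC of 3.10 (SE 0.87), and *Vegfa*, which also many other cells make, one of 0.58 (SE 0.25). *Nampt* and *Retnla*, at −0.21 (SE 0.34) and −0.37 (SE 0.77), did not pass.

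Among 14 adipogenic factors 7 rose. *Klf15*, a factor of late adipogenesis, had 0.905 to 2.42 CPM in control tumors and 3.64 to 17.3 CPM in Ctsd-KO tumors, a log2 FC of 2.59 (SE 0.54). *Mlxipl*, the gene of the glucose-sensing factor ChREBP, had a log2 FC of 2.42 (SE 0.56). *Cebpb* and *Cebpd*, which act early in adipogenesis before *Cebpa* and *Pparg*, did not pass, with log2 FCs of 0.04 (SE 0.26) and −0.34 (SE 0.31). Of 8 receptors and partners of the adipokines 5 rose. The adiponectin receptor *Adipor2* had a log2 FC of 0.96 (SE 0.30), while *Adipor1* did not pass at −0.24 (SE 0.20).

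**Figure D3:**
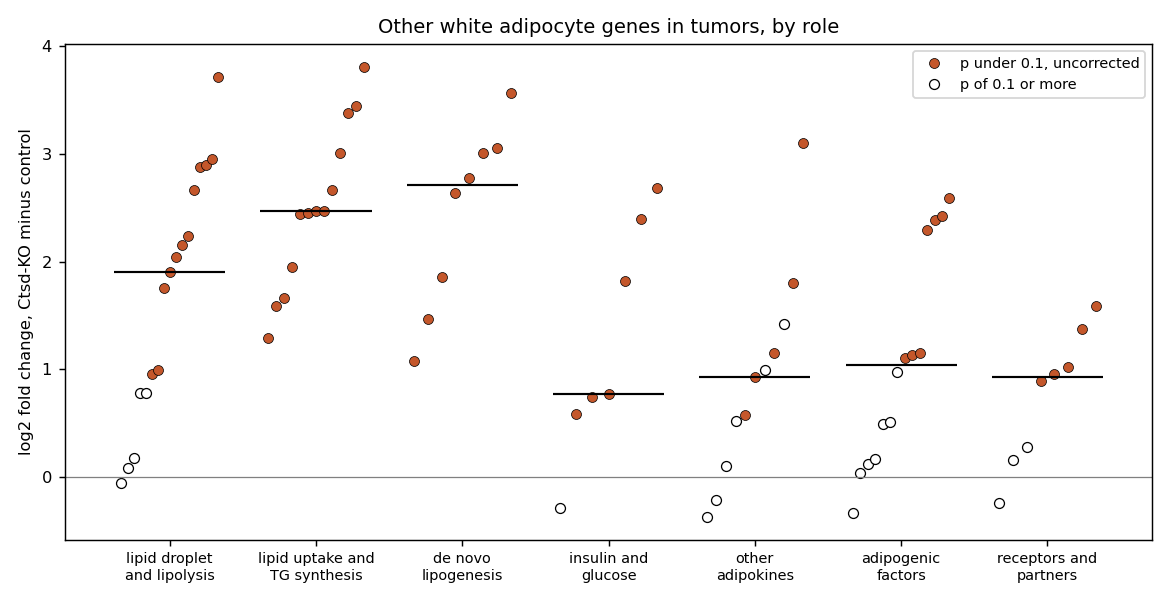
Log2 fold change between Ctsd-KO and control tumors of 78 white adipocyte genes that are not among the 10 members, by role, with the median of each list as a black line. Filled points passed a p of 0.1 without correction, and all genes of lipid uptake, triglyceride synthesis and de novo lipogenesis are filled and above 0.

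Markers of other cell types were read beside the members. Of 9 tested brown adipocyte markers 6 were higher in Ctsd-KO tumors at the same threshold. The summed level of the 10 brown adipocyte markers was 21.6 to 50.0 CPM in control tumors and 38.3 to 222 CPM in Ctsd-KO tumors, where the summed members reached 881 to 5714 CPM and 3862 to 24348 CPM. *Ucp1*, the defining marker of brown fat, had at most 0.185 CPM in control tumors and 0.486, 10.9, 8.30 and 5.34 CPM in Ctsd-KO tumors. *Ucp1* was thus highest in Ctsd-KO tumor 2, where the mean level of the members was lowest of their group, and *Zic1*, another brown adipocyte marker, had at most 3 reads in any tumor.

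Of 5 endothelial markers 4 were higher, with summed levels of 45.0 to 94.4 CPM in control and 60.8 to 234 CPM in Ctsd-KO tumors. Of 9 adipocyte progenitor and fibroblast markers 2 were higher, at 695 to 2579 CPM and 1396 to 2380.4 CPM. No luminal epithelial marker was higher and 1 of 8, *Prom1*, was lower, with summed levels of 4925 to 7683 CPM in control and 4515 to 5559 CPM in Ctsd-KO tumors. Basal epithelial markers (1 of 5 higher, 442 to 1050.3 and 475 to 1545 CPM), macrophage markers (0 of 7, 513 to 1055 and 519 to 868 CPM) and lymphocyte markers (1 of 6 higher, 8.26 to 12.0 and 7.38 to 14.0 CPM) overlapped between the groups. Of 6 skeletal muscle markers 1, *Mylpf*, was lower, through its 99.5 CPM in control tumor 4. It had 1.57, 1.99 and 2.22 CPM in control tumors 1 to 3 and 10.6, 2.35, 2.14 and 2.09 CPM in Ctsd-KO tumors. The part of these other cell types in the values of the members was not tested.

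**Figure D4:**
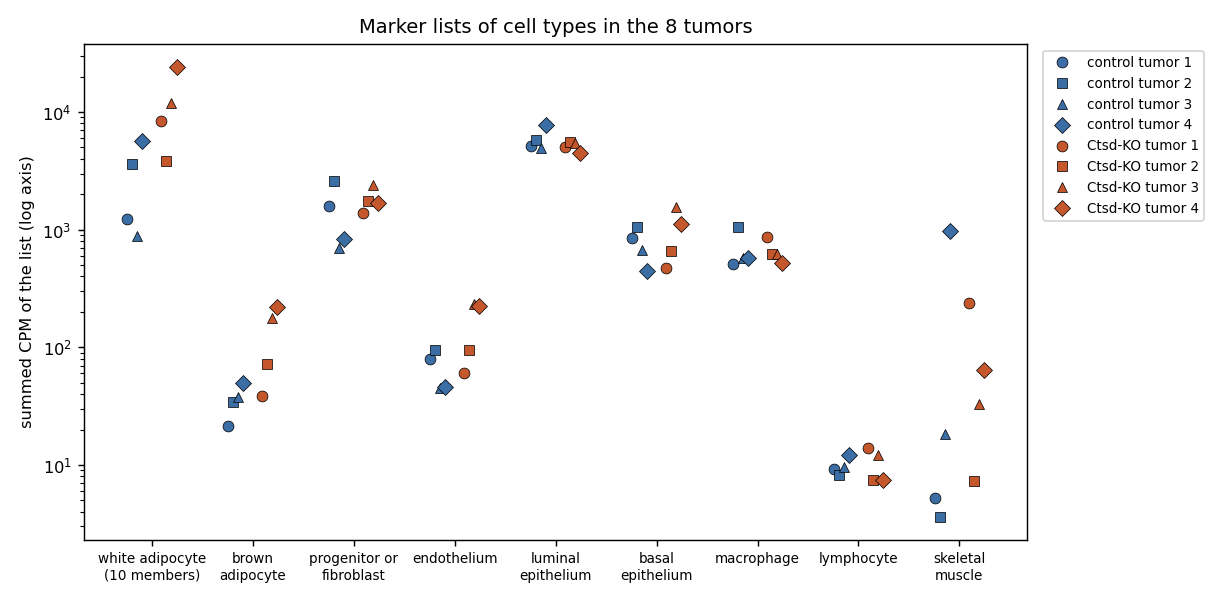
Summed CPM (log axis) of the 10 members and of 8 marker lists in each control (blue) and Ctsd-KO (orange) tumor. The members, the brown adipocyte list and the endothelial list are highest in Ctsd-KO tumors 3 and 4, the luminal list lies between 4515 and 7683 CPM in all tumors, and the muscle list is highest in control tumor 4 and Ctsd-KO tumor 1.

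The cultured tumor cells answer which of these genes the tumor cells express without fat tissue around them. The most restricted adipocyte genes were at or near 0 in the cells. *Plin1* and *Cfd* had 0 reads in all 12 samples, which allows up to 0.0916 CPM in the shallowest sample (3 reads per sample, counting error only). *Adipoq* had 2 reads in all, 1 each in 1% FCS LT WT replicates 2 and 3. *Lep* had 2 reads, both in 1% FCS LT WT replicate 3, and *Retn* had 7 reads over 5 of the samples. These 5 genes were too low to test, so no genotype difference can be read from them in cells. Beside this, *Cfd* had at least 310.0 CPM and *Adipoq* at least 24.0 CPM in every tumor.

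The other 5 members were tested in cells, and *Pparg*, *Lipe* and *Pnpla2* were higher in Ctsd-KO than in WT cells in 1% FCS. A gene in cells counted as called with an adjusted p under 0.05 and a log2 FC beyond 1 in either direction, here by edgeR's quasi-likelihood test over 15178 genes. In that comparison 10.3% of all genes were called higher and 25% in either direction. *Pparg* had 1.80, 1.28 and 1.67 CPM in WT and 5.06, 4.63 and 3.28 CPM in Ctsd-KO cells (log2 FC 1.45, SE 0.24, adjusted p = 0.000477). *Lipe* had 9.66, 7.48 and 9.11 CPM in WT and 18.5, 22.2 and 22.2 CPM in Ctsd-KO cells (log2 FC 1.26, SE 0.17, adjusted p = 9.41e-05). *Pnpla2* had 46.3, 50.5 and 56.6 CPM in WT and 99.4, 108 and 106 CPM in Ctsd-KO cells (log2 FC 1.03, SE 0.11, adjusted p = 1.29e-05). Without replicate 2 of each group the log2 FC of *Pnpla2* was 0.996 and it was no longer called.

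*Fabp4* was low in all cells, with 1, 0 and 2 reads in WT and 30, 8 and 9 reads in Ctsd-KO cells in 1% FCS. Over the group this was 47 against 3 reads, a ratio of 14.7 after scaling, with a 95% interval of 4.72 to 73.7 that covers counting error only. It was called (adjusted p = 0.0311), but lost the call without replicate 2 (adjusted p = 0.156), without replicate 3 (adjusted p = 0.0726) and with limma-voom (adjusted p = 0.0996). *Fabp4* passed the filter on low counts only through its Ctsd-KO samples, so it had to differ. It enters a count of members called only where this is stated. *Cebpa* went the other way, with 2.43, 1.28 and 0.523 CPM in WT and 0.730, 0.520 and 0.503 CPM in Ctsd-KO cells, and was not called (log2 FC −1.26, SE 0.55, adjusted p = 0.0805).

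WT cells in 1% FCS also stood apart by their markers. The summed level of 9 progenitor and fibroblast markers was 626 to 2614 CPM there and 2.68 to 15.1 CPM in the other groups. The summed level of 8 luminal epithelial markers was 921 to 1737 CPM there and 4655 to 10403 CPM in the other groups. Every comparison of the members with this group carries that difference, and its part in them was not tested.

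In 1% FCS LT, after 12 weeks, *Pparg*, *Lipe*, *Pnpla2* and *Cebpa* were not called by edgeR, DESeq2 or limma-voom, and 0 of these 4 had an unadjusted p under 0.05 by edgeR. Of all genes 19.4% were called by edgeR, 9.24% higher and 10.1% lower. *Pparg* had 6.43, 4.77 and 4.56 CPM in WT and 3.35, 3.86 and 4.43 CPM in Ctsd-KO cells (log2 FC −0.44, 95% interval −0.89 to 0.02). *Lipe* differed by −0.15 (95% interval −0.47 to 0.18) and *Pnpla2* by −0.03 (95% interval −0.24 to 0.18) on the log2 scale, intervals that allow a difference up to these bounds. *Cebpa* had a log2 FC of 1.10 (95% interval −0.03 to 2.23). *Fabp4*, which had to differ as above, was called with 0, 1 and 1 reads in WT and 2, 40 and 76 reads in Ctsd-KO cells. This was 118 against 2 reads, a ratio of 55.2 after scaling (95% interval 14.9 to 461, counting error only; edgeR adjusted p = 0.00464). Ctsd-KO replicate 1 was at the level of the WT cells, and the call was lost without replicate 2 (adjusted p = 0.0695), without replicate 3 (adjusted p = 0.0663) and with limma-voom (adjusted p = 0.0534).

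WT cells changed between the culture times. From 1% FCS to 1% FCS LT, *Pparg* rose in WT cells by a log2 FC of 1.73 (SE 0.24, adjusted p = 0.000153) and *Lipe* by 1.74 (SE 0.17, adjusted p = 1.05e-05), while *Cebpa* had a negative log2 FC of −1.93 (SE 0.58; adjusted p = 0.0164). These were 3 of the 4 members other than *Fabp4*, where 23.4% of all genes were called in either direction. *Cebpa* was not called without replicate 1 (adjusted p = 0.0998) or replicate 2 (adjusted p = 0.153). *Pnpla2*, at a log2 FC of 0.77 with an SE of 0.11, stayed under the fold limit (adjusted p = 0.000123). In Ctsd-KO cells 0 of these 4 were called, by edgeR, DESeq2 or limma-voom, and 1.48% of all genes by edgeR, and only *Pnpla2* had an unadjusted p under 0.05 (log2 FC −0.29, SE 0.11; edgeR adjusted p = 0.172). *Lipe* had 22.2, 23.4 and 33.4 CPM in Ctsd-KO cells in 1% FCS LT, which overlapped with its values in 1% FCS.

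The interaction tests whether the genotype difference itself changed with culture time. It was called for *Pparg*, *Lipe*, *Pnpla2* and *Cebpa*, where 19.1% of all genes were called, 11% higher and 8.12% lower. The genotype difference of *Pparg* was lower in 1% FCS LT than in 1% FCS by a log2 FC of −1.88 (SE 0.34, adjusted p = 0.00151), that of *Lipe* by −1.41 (SE 0.24, adjusted p = 0.00101) and that of *Pnpla2* by −1.06 (SE 0.15, adjusted p = 0.000298). That of *Cebpa* was higher by 2.36 (SE 0.80, adjusted p = 0.0436), and that of *Fabp4* was not called (log2 FC 1.85, SE 2.30, adjusted p = 0.586). All 4 calls were lost without replicate 2 of each group, with log2 FCs of −1.77, −1.18, −0.93 and 2.18 for *Pparg*, *Lipe*, *Pnpla2* and *Cebpa*.

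**Figure D5:**
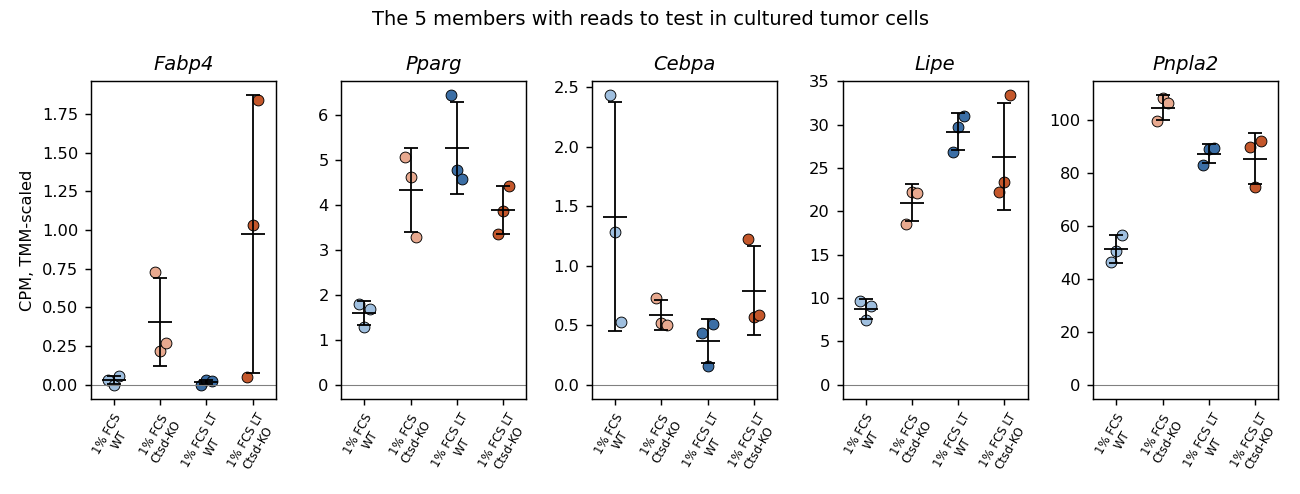
CPM (linear axis) of the 5 members that could be tested in cells, in 3 replicates of each of 4 groups, with the mean and SD in black. WT cells in 1% FCS are lowest for *Pparg*, *Lipe* and *Pnpla2*, and *Fabp4* stays near 0 in all WT samples and in 1 Ctsd-KO replicate in 1% FCS LT.

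Of the other white adipocyte genes, 57 could be tested in cells. In 1% FCS 8 were called higher and 14 lower in Ctsd-KO cells, where 10.3% and 14.6% of all genes were. In 1% FCS LT 15 were called higher and 7 lower, where 9.24% and 10.1% of all genes were. In the interaction 10 were called higher and 4 lower, where 11% and 8.12% of all genes were. The threshold in cells was stricter than that in tumors, so these counts are not set against those of the tumors.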

How the data were processed

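Per the labels and the study's methods, reads were trimmed with Trimmomatic and mapped with STAR to mm10 (GRCm38), and the authors deposited raw counts per gene. The version of STAR and the annotation behind the counts are not given in the sources used here. The files hold counts regardless of strand, on the gene's strand and on the opposite strand. In tumors 52.8% to 53.7% of the stranded counts lay on the opposite strand so strand was ignored. In cells 97.1% to 97.3% did, and only these were used. Reads that overlap several genes, or map to several places, are not in the gene counts. The share set aside as overlapping several genes reached 17.7% in a tumor. Symbols, positions and exon lengths came from GENCODE M21, which held 45143 of 45706 identifiers.

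Counts were scaled with TMM and fitted in R 4.3.3 with edgeR 4.0.16 (filterByExpr, glmQLFit, glmQLFTest, two-sided, Benjamini-Hochberg adjustment over all genes tested), the 8 tumors and the 12 cell samples each in a fit of their own. This left 18617 genes in tumors and 15178 in cells. CPM are TMM-scaled, and log2 CPM profiles used a prior count of 2. Alternatives were DESeq2 1.42.0, limma 3.58.1 (voom), DESeq2's size factors, no filter, other strand columns, the replicate number as a block, cell samples with a single library code, and leaving out replicates. Leaving out control tumor 4 and Ctsd-KO tumor 1 together was added after seeing the data. The settings were tested on simulated data. The members, gene lists and tests were chosen with earlier results of these data known. Named genes are the members, *Ctsd*, up to 3 genes per role list (ranked by absolute log2 FC, at p under 0.1 and without overlap), the 10 genes closest in profile, and marker lists. A gene closest in profile is not reported here. Genes named for not passing the test, and *Slc2a4*, *Rbp4*, *Cidea*, *Kcnk3* and *Ucp1*, were chosen after their values were seen. No pair of samples of the same group was close enough in counts to be the same library (lowest chi-square per gene 122 in tumors and 16.5 in cells). Pairs across groups were not compared in this way.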

Additional observations from a re-analysis of the deposited data

Results flagged for a closer look

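*Cebpa* in control tumor 2, at 45.4 CPM, stood apart from the other control tumors, which had 24.0 to 25.5 CPM. The gap was 0.906 of the range of log2 CPM, above Dixon's critical value for 4 samples. Of 20 groups of tumors examined, chance alone would mark about 1.

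In cells, the genotype difference depended on culture time for 4 members by edgeR's interaction test. The difference (1% FCS LT minus 1% FCS, log2) was −1.88 for *Pparg*, −1.41 for *Lipe*, −1.06 for *Pnpla2* and 2.36 for *Cebpa*, with adjusted p of 0.00151, 0.00101, 0.000298 and 0.0436. None of these calls was kept without replicate 2 of each group.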

How the results depend on the processing

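The median log2 FC of the members in tumors lay between 2.47 and 3.27 over the other settings and between 1.97 and 3.04 when each tumor was left out in turn. Between 45 and 59 of the other white adipocyte genes were higher at p under 0.1 over the settings, and 47 to 59 with each tumor left out, with 0 to 1 lower (*Cebpd*, without Ctsd-KO tumor 2). At an adjusted p under 0.05, edgeR called 0 of them, limma-voom 0 and DESeq2 28, without a share of all genes for DESeq2 to set beside it. By edgeR 1 of all 18617 genes tested passed. *Vegfa* was not called without Ctsd-KO tumor 4 (log2 FC 0.46).

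In cells, leaving out a replicate number gave 2 to 4 called members for genotype in 1% FCS. For genotype in 1% FCS LT it gave 0 to 1, and for the interaction 0 to 4. *Fabp4* is included in these counts. With all replicates, 25%, 19.4% and 19.1% of all genes were called in these comparisons. In 1% FCS LT limma-voom called 0, with *Fabp4* at an adjusted p of 0.0534. The samples of a single library code gave 0, because *Fabp4* failed the count filter in that setting. Uncalled log2 FCs that changed sign were *Pnpla2* in 1% FCS LT with a replicate left out (−0.0995 to 0.0640), *Pparg* between culture times in Ctsd-KO with a replicate left out (−0.43 to 0.0662), and *Fabp4* between culture times in WT with strand ignored (0.26). Of 590 values of single genes, 569 kept their direction and side of the threshold.

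Replicate numbers were not taken to pair the samples: same-numbered tumors had correlations of −0.303 to −0.00755, and same-numbered cell samples −0.295 to 0.362. Within 1% FCS, WT and Ctsd-KO samples of the same number had 0.362, 0.1 and 0.299 and share a library code, so a pairing there was not settled. With the number as a replicate block the members' median was 2.69, 45 other genes were higher, and 4, 1, 3, 0 and 4 members were called in the cell comparisons, as without it (counts here include *Fabp4*). The tumor groups have 4 samples each, and the cells a single line per genotype, which limits what the p-values cover.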

Other observations

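Of the brown adipocyte markers, *Cidea*, a lipid droplet protein, had 3.45, 13.8, 6.80 and 8.42 CPM in control tumors and 8.78, 31.9, 85.4 and 118 CPM in Ctsd-KO tumors (log2 FC 2.91, SE 0.71). *Kcnk3*, a potassium channel, had at most 1.61 CPM in control tumors and 3.49, 6.35, 27.0 and 29.9 CPM in Ctsd-KO tumors (log2 FC 4.45, SE 0.95). Like the members, both were highest in Ctsd-KO tumors 3 and 4, whereas *Ucp1* was highest in Ctsd-KO tumor 2. The adjusted p of *Cidea* and *Kcnk3* by edgeR were 0.369 and 0.292. Other markers of this list went the other way. *Dio2* and *Cox7a1* had lower means in Ctsd-KO tumors, with log2 FCs of −0.68 (SE 0.47) and −0.43 (SE 0.43), and did not pass.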
